A study of Drosophila melanogaster with 2 samples.

Results

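The transfer RNA (tRNA) genes of the Drosophila melanogaster nuclear genome were scored for chromatin occupancy by fu2-GFP. They were taken as every gene with the biotype tRNA in the Ensembl annotation of the main chromosome arms, which gave 290 of the 18277 annotated genes, and the 22 mitochondrial tRNA genes were left out. A gene was counted as having a summit when the position of highest signal in a listed region lay within 500 bp of its annotated 5′ end. No measured value entered the choice of genes.

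The chromatin came from embryos 0 to 24 h old, whole and of mixed sex, from a transgenic line in which GFP is fused to the C-terminus of fu2. The labels give prg, a zinc finger gene also known as fu2, as the target of the insertion, and anti-GFP antibody pulled down the chromatin. Chromatin was sonicated to 200 to 800 bp, and all samples are 1 group with 2 biological replicates, which the labels number 2 and 3. No control list or second genotype was analysed here, so the comparisons are between classes of genes and between the replicates. The fusion protein carries the tag in all samples, and whole embryos mix all cell types, so occupancy in a minority of cells cannot be told apart from weak occupancy in many.

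tRNA genes are transcribed by RNA polymerase III. Their promoter lies inside the transcribed sequence as an A box and a B box, which the factor TFIIIC recognises. TFIIIC then places TFIIIB just upstream of the gene, and the polymerase reads through to a short run of T. A factor that acts at the tRNA promoter itself is thus usually mapped over the gene or its immediate 5′ flank. Many tRNA genes exist in identical copies and lie in clusters, and some sit in introns or beside the start of a protein coding gene.

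Sequences are shown for the genes and summits on which the results turn, read from the Release 6 genome (dm6), 5′ to 3′. The first is a stretch that holds both a tRNA gene and a reproducible summit with no protein coding start within 500 bp, chrX:3427452-3427751 on the minus strand. The gene stands in capitals (bases 229 to 300), and the summit is base 39, so that 189 bases lie between them.
tRNA:Gln-TTG-2-1: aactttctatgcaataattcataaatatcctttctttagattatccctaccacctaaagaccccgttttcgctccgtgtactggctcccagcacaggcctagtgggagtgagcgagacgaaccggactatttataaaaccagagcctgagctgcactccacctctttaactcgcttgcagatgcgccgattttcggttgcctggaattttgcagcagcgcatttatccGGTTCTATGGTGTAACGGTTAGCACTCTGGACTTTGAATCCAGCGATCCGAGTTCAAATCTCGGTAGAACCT

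The next 3 are tRNA genes, with matches to the A box core (GNNNAGTNG) and the B box core (GTTCNANNC) in capitals. The tyrosine gene lies at chr3R:8669081-8669174 on the minus strand and belongs to the strongest summit near any tRNA gene. The aspartate gene lies at chr2L:8541552-8541623 on the minus strand, and its neighbour tRNA:Asp-GTC-1-5 has the same 72 bases. The isoleucine gene lies at chr3L:769503-769600 on the plus strand and holds a weaker summit at its base 27 of 98.
tRNA:Tyr-GTA-1-8: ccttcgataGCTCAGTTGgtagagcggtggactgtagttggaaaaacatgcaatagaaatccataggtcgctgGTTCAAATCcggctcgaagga
tRNA:Asp-GTC-1-4: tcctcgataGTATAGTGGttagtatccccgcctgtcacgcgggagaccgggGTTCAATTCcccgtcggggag
tRNA:Ile-TAT-1-1: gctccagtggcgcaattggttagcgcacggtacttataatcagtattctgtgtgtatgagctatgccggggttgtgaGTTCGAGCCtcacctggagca

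The last 2 are windows of 101 bases centred on the 2 strongest summits near tRNA genes, on the plus strand, to set beside the genes. That of tRNA:Tyr-GTA-1-8 spans chr3R:8669350-8669450, and the capitals mark a match to the A box core on the opposite strand, outside the gene. That of tRNA:Phe-GAA-1-2 spans chrX:6744261-6744361 and holds none of the words searched.
summit near tRNA:Tyr-GTA-1-8: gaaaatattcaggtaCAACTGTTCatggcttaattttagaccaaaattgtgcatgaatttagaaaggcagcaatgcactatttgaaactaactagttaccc
summit near tRNA:Phe-GAA-1-2: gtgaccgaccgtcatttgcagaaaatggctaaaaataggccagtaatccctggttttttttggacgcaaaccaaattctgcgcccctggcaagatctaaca

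Few tRNA genes had a reproducible fu2-GFP summit. Of the 3033 peaks that passed the authors' irreproducible discovery rate (IDR) step, 9 summits lay within 500 bp of the start of a tRNA gene, and they served 11 of the 290 genes, or 3.79% (exact 95% binomial interval 1.91% to 6.69%, which covers counting over genes only). The same share was 3.68% of 4019 other non-coding genes and 17.5% of 13968 protein coding genes. The tRNA share thus lay at the level of non-coding genes in general, within its interval, while the interval ended well under the protein coding share. Among the small RNA classes, 12 of 269 snoRNA genes (4.46%), 4 of 32 snRNA genes (12.5%) and 6 of 260 microRNA genes (2.31%) had an IDR summit. Their intervals all overlapped that of the tRNA genes.

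In the pooled list, which the authors called on both replicates together and which holds 30000 regions that by its name include background, 102 tRNA genes had a summit, or 35.2% (29.7% to 41.0%). The share was 26.6% of the other non-coding genes and 55.7% of protein coding genes. It was also 32.3% of snoRNA genes, 43.8% of snRNA genes and 26.5% of microRNA genes. The tRNA share therefore stood above that of the other non-coding genes in the full list and not among the IDR peaks. The other non-coding genes include 100 5S rRNA genes and 90 genes on Y, none with a pooled summit. Genes of the ncRNA biotype other than microRNA genes stood closer to the tRNA genes, at 28.8% of 3029. Of the 85 pooled summits near tRNA genes, 9 were IDR peaks by rank (10.6%), against 10.1% of the whole list.

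The replicates were then taken alone. Replicate 2 placed a listed summit near 87 tRNA genes (30.0%) and replicate 3 near 114 (39.3%), against 27.5% and 26.4% of other non-coding genes in replicates 2 and 3. The mean over replicates was 34.7% ± 6.58 for tRNA genes and 27.0% ± 0.792 for the other non-coding genes (SD, n = 2 each). The higher level in the full lists was thus wide in replicate 3 and narrow in replicate 2, whose own interval for tRNA genes (24.8% to 35.6%) held the share of other non-coding genes. Genes of the ncRNA biotype other than microRNA genes stood at 29.9% in replicate 2, close to the tRNA share, and at 28.7% in replicate 3. Both replicates listed 59 tRNA genes, which is 67.8% of the genes found in replicate 2 and 51.8% of those found in replicate 3. Among other non-coding genes, the genes in both made up 58.0% of replicate 2 and 60.5% of replicate 3, so tRNA genes were above them on the first measure and under them on the second. No summit in any of the 3 full lists lay near 143 of the 290 tRNA genes (49.3%), against 60.8% of other non-coding genes and 34.8% of protein coding genes.

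When each replicate was cut to its 3033 strongest regions, the size of the IDR list, 9 tRNA genes (3.10%) remained in replicate 2 and 10 (3.45%) in replicate 3. The other non-coding genes stood at 3.68% in replicate 2 and 3.86% in replicate 3. The mean was 3.28% ± 0.244 for tRNA genes, 3.77% ± 0.123 for other non-coding genes and 17.3% ± 0.0709 for protein coding genes (SD, n = 2 each). These SDs hold only the spread between replicates. The exact intervals of the tRNA genes were 1.43% to 5.81% in replicate 2 and 1.67% to 6.25% in replicate 3. They held the shares of other non-coding genes. In both replicates the tRNA share was thus not set apart from that of other non-coding genes, and was several times under that of protein coding genes. Both strongest lists held 6 tRNA genes, all of them IDR genes, and each IDR gene was in the strongest list of at least 1 replicate.

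**Figure D1:**
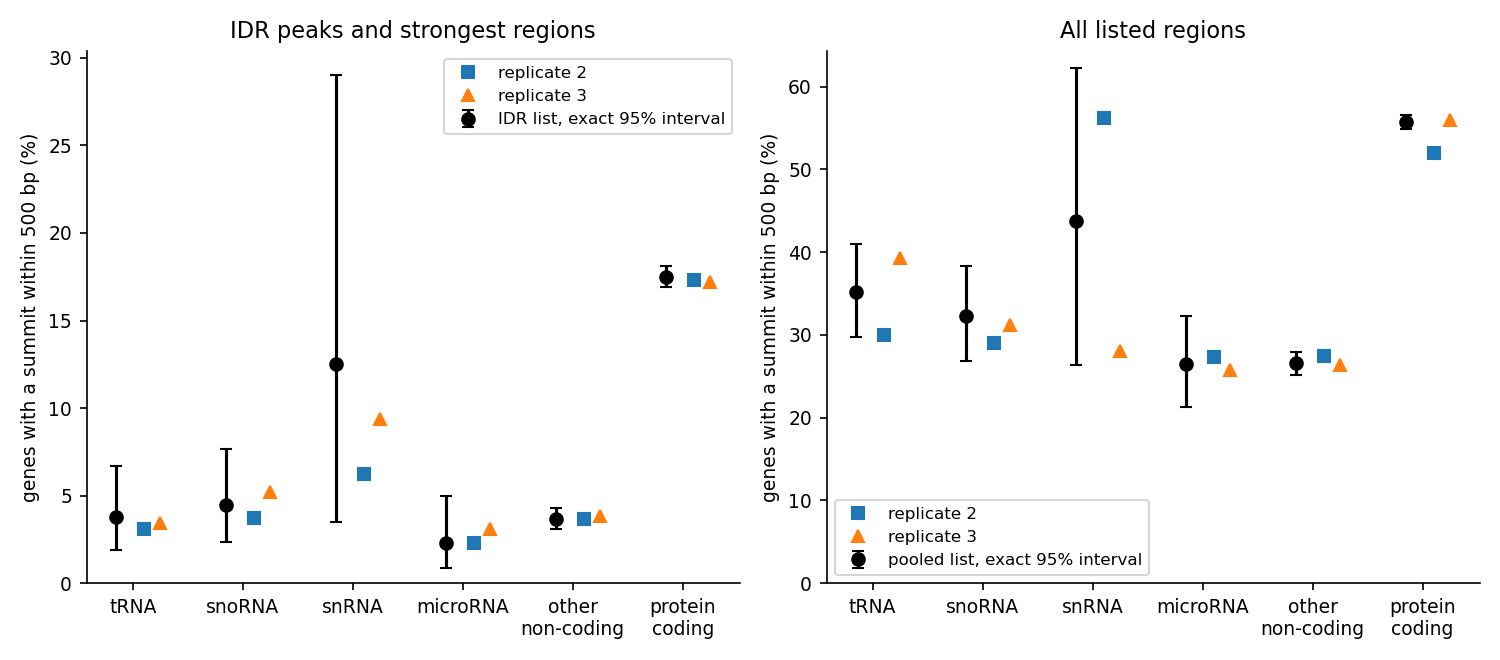
Percentage of genes in each class with a summit within 500 bp of any annotated transcript start, in the IDR list with the strongest regions of each replicate (left) and in the full lists (right). Circles show the IDR or pooled list with the exact 95% interval, squares replicate 2 and triangles replicate 3; tRNA genes are at 3.79% in the IDR list, near the 3.68% of other non-coding genes and under the 17.5% of protein coding genes.

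Most reproducible summits near tRNA genes also lay near the start of a protein coding gene. Of the 9, 7 had a protein coding start within 500 bp (77.8%), against 61.6% of all IDR summits. In each of these 7 the coding start was nearer to the summit than any tRNA start, which concerned 9 of the 11 genes. No IDR summit lay inside a tRNA gene, and 2 of the 9 regions reached into one, those of tRNA:His-GTG-1-3 and tRNA:Gln-TTG-2-1. The signal values given next are the authors' own for the pooled calls, where the lowest IDR peak had 62.52 and the median IDR peak 97.23. Values of separate lists have no shared scale, so the replicates are compared by rank.

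The strongest was the summit near tRNA:Tyr-GTA-1-8 (FBgn0012024), in a cluster of 3 tyrosine genes and within an intron of CG8036 and p. It had a signal of 273.9 and rank 185 of 3033, and it ranked 173 in replicate 2 (signal 107.4) and 206 in replicate 3 (signal 166.0). The summit lay 226 bp upstream of the tRNA start and 218 bp from a start of CG8036, so the distances were nearly equal. No other of the 290 tRNA genes is identical to it over the whole annotated sequence, intron included.

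tRNA:Phe-GAA-1-2 (FBgn0052740, X, 6744471 to 6744543, minus strand) is a single gene with 8 identical copies among the 290 tRNA genes, including itself. The summit near it had a signal of 184.8 at rank 447. Replicate 2 ranked it 428 (signal 70.85) and replicate 3 ranked it 456 (signal 117.2). Its summit lay 232 bp past the tRNA start on the downstream side and 73 bp from the start of RpL17, which encodes a protein of the large ribosomal subunit. A snoRNA start, that of snoRNA:Psi28S-1232, also lay within 500 bp.

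The summit near tRNA:Val-CAC-2-5 (FBgn0012003, 3R, 19672277 to 19672349, minus strand), a gene in an intron of Naam, which encodes a nicotinamidase, had a signal of 143.6 at rank 770. Its rank was 1121 in replicate 2 (signal 44.52) and 669 in replicate 3 (signal 97.54). It was far from both starts, 465 bp from that of the tRNA gene and 434 bp from that of Naam. These first 3 were the only summits near tRNA genes above the median IDR signal.

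Around the 4-gene histidine cluster on 2R, the summit near tRNA:His-GTG-1-3 (FBgn0050251, 2R, 12334995 to 12335066, minus strand) had a signal of 92.48 at rank 1657. The replicates differed, with rank 4512 in replicate 2 (signal 18.81) and 1108 in replicate 3 (signal 74.03). It lay 179 bp upstream of the tRNA gene, the nearest of all IDR summits, and 71 bp from the start of CG8490.

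The next coding neighbour was CG30122, 19 bp from the summit near tRNA:Trp-CCA-2-2 (FBgn0050227, 2R, 18639557 to 18639628, plus strand). That summit had a signal of 83.09 at rank 1951 and lay 268 bp upstream of the tRNA gene. It ranked 2780 in replicate 2 (signal 25.68) and 1713 in replicate 3 (signal 57.76), inside the strongest regions of both.

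Each of the last 2 summits with a coding start within 500 bp lay near a pair of tRNA genes that point away from each other. tRNA:Asp-GTC-1-4 (FBgn0051604, 2L, 8541552 to 8541623, minus strand) and tRNA:Asp-GTC-1-5 (FBgn0051603, 2L, 8541761 to 8541832, plus strand) shared a summit with a signal of 73.13 at rank 2380, 1798 in replicate 2 (signal 33.78) and 3224 in replicate 3 (signal 39.02). It lay 478 bp from the first tRNA start, 340 bp from the second and 46 bp from that of Sema1a, a semaphorin of axon guidance. In the same way, tRNA:Trp-CCA-2-6 (FBgn0050209, 2R, 21182678 to 21182749, minus strand) and tRNA:Gly-GCC-1-13 (FBgn0011872, 2R, 21182856 to 21182926, plus strand) shared a summit at rank 2526 with a signal of 70.74. It ranked 2158 in replicate 2 (signal 30.17) and 2655 in replicate 3 (signal 43.81), and it lay 468 bp from the tryptophan gene, 361 bp from the glycine gene and 105 bp from the start of tud, a gene of germ plasm assembly.

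Only 2 IDR summits near tRNA genes had no protein coding start within 500 bp. The first was that of tRNA:Gln-TTG-2-1 (FBgn0052493, X, 3427452 to 3427523, minus strand), a single, unique gene in an intron of CG12535, printed above with its summit. It had a signal of 86.45 at rank 1824, and the replicates were close, with rank 1628 in replicate 2 (signal 35.89) and 2120 in replicate 3 (signal 50.35). The summit lay 190 bp upstream of the tRNA start, and the nearest protein coding start, that of CG14269, was 8094 bp away. It was also 1 of the 2 whose region overlapped the tRNA gene.

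The second was near tRNA:Glu-TTC-1-5 (FBgn0011849, 2R, 19727460 to 19727531, minus strand), in a cluster of 7 glutamate and initiator methionine genes. Its signal of 64.46 at rank 2900 was near the lowest IDR signal, and the replicates ranked it far apart, at 6664 in replicate 2 (signal 15.08) and 2167 in replicate 3 (signal 49.69). The summit lay 394 bp downstream of the tRNA start, and the start of snoRNA:185 was within 500 bp of it. The nearest protein coding start, CG8517, was 13061 bp away.

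**Figure D2:**
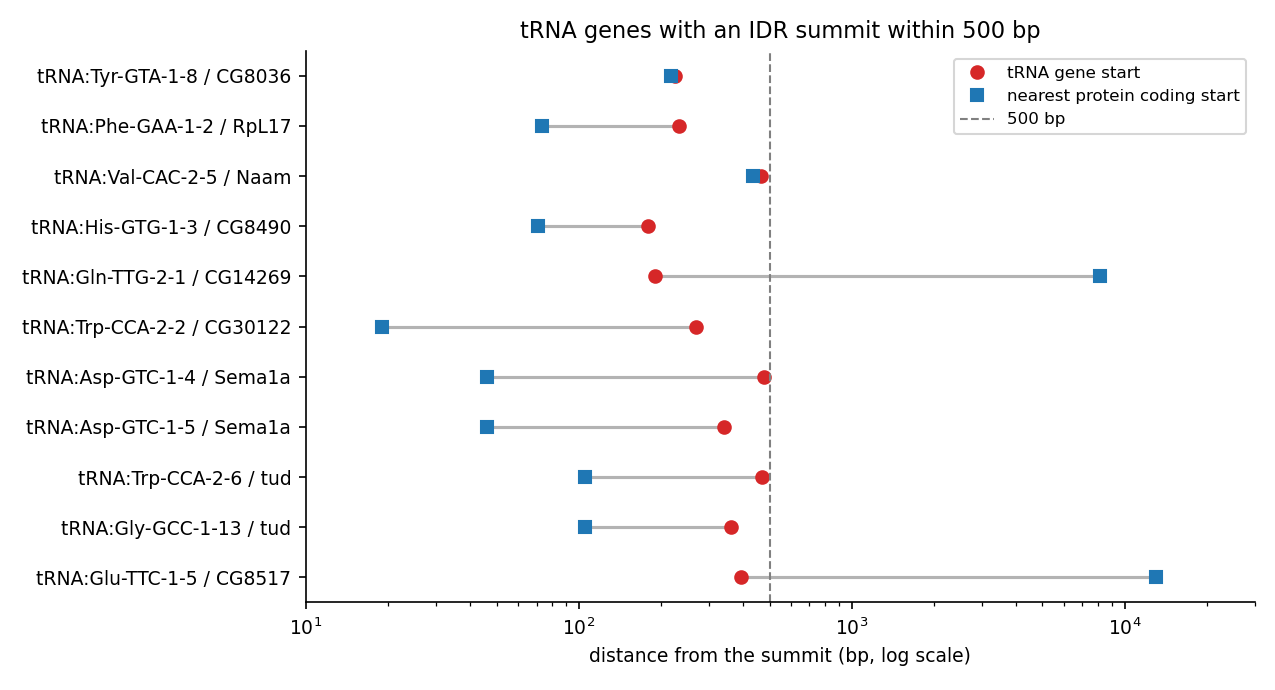
Distance in bp (log scale) from the IDR summit to the start of each of the 11 tRNA genes (circles) and to the nearest protein coding start (squares), with the pair named on the vertical axis and ordered by signal. The coding start is the nearer one in 9 genes, and the exceptions are tRNA:Gln-TTG-2-1 and tRNA:Glu-TTC-1-5, whose nearest coding starts are 8094 bp and 13061 bp away.

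**Figure D3:**
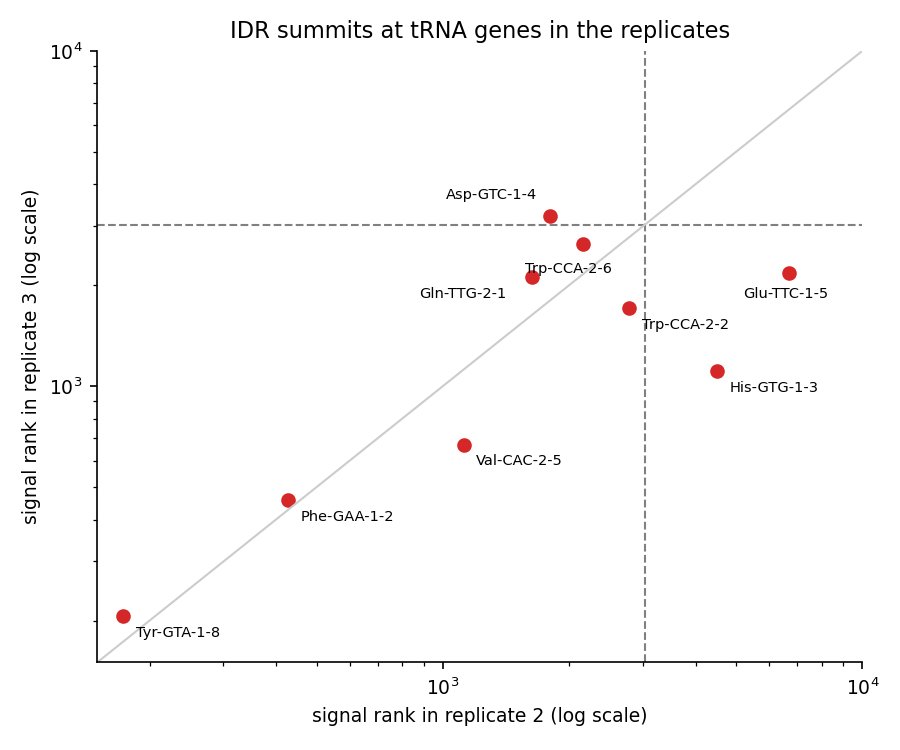
Signal rank of the 9 IDR summits near tRNA genes in replicate 2 and replicate 3 (log scales; 1 is the strongest), each named by 1 of its tRNA genes. Dashed lines mark rank 3033 and the grey line equal ranks; His-GTG-1-3 and Glu-TTC-1-5 lie past rank 3033 in replicate 2, and Asp-GTC-1-4 lies past it in replicate 3.

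Just under the IDR threshold stood summits near tRNA:Pro-AGG-1-2 (signal 59.93, rank 3212 of the pooled list), tRNA:Val-CAC-1-1 (signal 58.93, rank 3286) and tRNA:Ile-AAT-1-3 (signal 58.64, rank 3304). Those of the proline and valine genes had no coding start within 500 bp, while that of the isoleucine gene lay 107 bp from a start of ATP8A. The next in order were the pair tRNA:Arg-CCT-1-2 and tRNA:Arg-CCT-1-3 (signal 50.91), tRNA:Leu-TAA-2-1 (48.22), tRNA:Leu-CAA-2-2 (46.8), tRNA:Ile-AAT-1-8 (45.76), tRNA:Pro-CGG-2-1 (44.33) and tRNA:Ala-TGC-2-1 (43.08). Of these 9 summits, those near tRNA:Ile-AAT-1-3, tRNA:Leu-TAA-2-1, tRNA:Ile-AAT-1-8 and tRNA:Pro-CGG-2-1 had a coding start within 500 bp. The 2 tRNA genes in the strongest regions of a single replicate without an IDR peak were tRNA:Leu-CAA-2-2, at rank 2853 in replicate 2 and 6807 in replicate 3, and tRNA:Val-CAC-1-1, at rank 6127 in replicate 2 and 2797 in replicate 3.

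Over the whole pooled list the neighbourhood depended on the replicate. In all, 17 of the 85 summits near tRNA genes had a protein coding start within 500 bp (20.0%), against 31.2% of all pooled summits. In replicate 2 the share was 27.3% near tRNA genes and 27.1% over its list, and in replicate 3 it was 16.5% near tRNA genes and 32.1% over its list. The lower share near tRNA genes was thus seen in replicate 3 and not in replicate 2. The regions of 50 of the 85 overlapped a tRNA gene. Their median signal was 24.62 and their median rank 12308, against a median signal of 22.03 over the list. Of the 85, 24 were shared by 2 or 3 tRNA genes, so the gene counts are not independent.

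Summits did not gather at the tRNA start. The distances between the 11 genes and their IDR summits were 179 to 478 bp with a median of 340 bp, 6 upstream and 5 downstream, and none lay within 100 bp. In the pooled list the median distance was 228 bp, with 22 of 102 genes having a summit within 100 bp. Counted in bins of 100 bp, the pooled list held 4.31 summits per 100 tRNA genes within 100 bp of the start, 4.02 at 200 to 500 bp and 3.59 at 500 to 1000 bp. At protein coding genes the same bins held 11.9, 5.01 and 3.89 summits per 100 genes. Among the IDR peaks the bins held 0, 0.517 and 0.276 summits per 100 tRNA genes and 3.58, 0.848 and 0.341 per 100 protein coding genes. The profile over tRNA genes was thus nearly level on the pooled list, where that of protein coding genes fell away on both sides of the start.

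**Figure D4:**
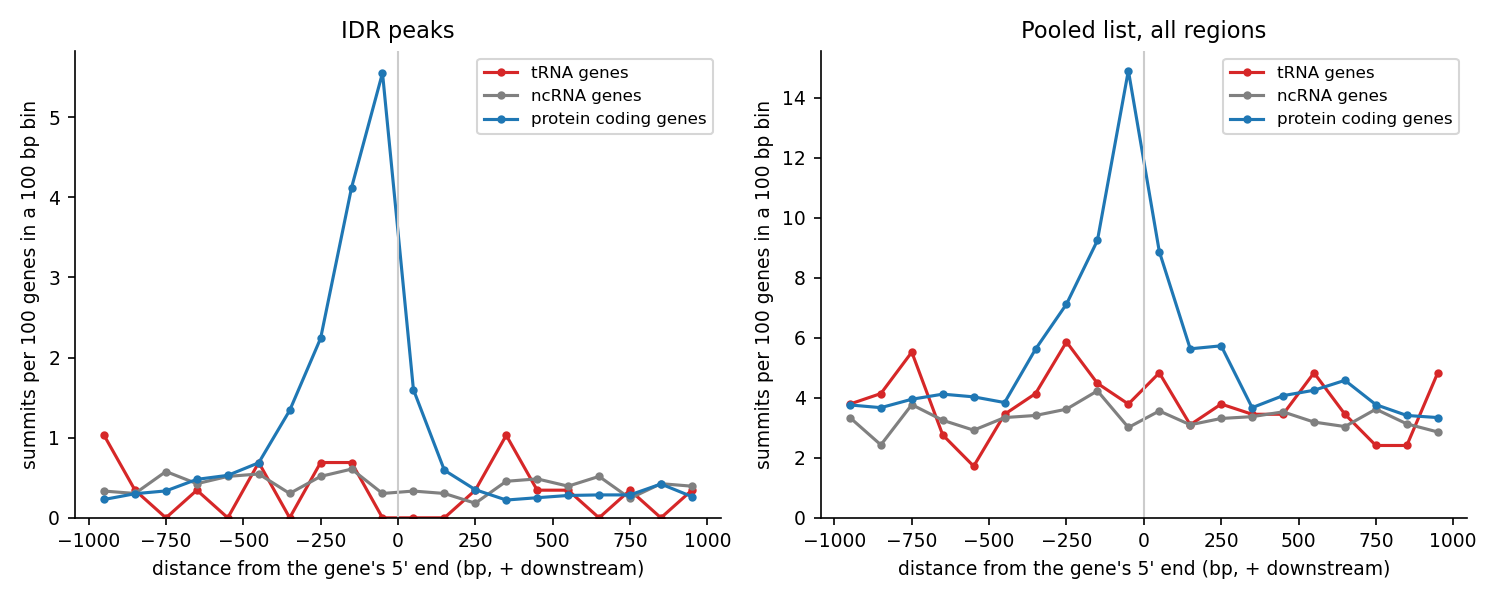
Summits per 100 genes in bins of 100 bp against the signed distance from the gene's 5′ end, for IDR peaks (left) and the pooled list (right), with tRNA genes in red, genes of the ncRNA biotype in grey and protein coding genes in blue. The blue curve rises at the start in both panels, while the red curve holds 0 IDR summits within 100 bp of the start and stays near the grey one in the pooled list.

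In 13 pooled regions the summit itself fell inside a tRNA gene. None was an IDR peak, and their ranks were 4707 to 29676. Replicate 2 had a summit within 100 bp of 5 of them, replicate 3 of 11 and both of 3. Those in both were in tRNA:Ile-AAT-1-8 (signal 45.76), tRNA:Ile-TAT-1-1 (signal 38.46) and tRNA:Leu-CAG-1-4 (signal 27.08). The gene tRNA:Ile-TAT-1-1, printed above, had its summit at rank 6094, with rank 6380 in replicate 2 and 7963 in replicate 3. It has no identical copy over its whole annotated sequence, and parts of it were not compared.

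In the IDR list, proximity to a protein coding start divided the tRNA genes more than a split into clustered and single, intronic and intergenic, or copied and unique genes did. Of the 32 tRNA genes whose own start lay within 500 bp of a coding start, 6 had an IDR summit (18.8%, 7.21% to 36.4%), against 5 of the other 258 (1.94%, 0.632% to 4.46%). The intervals did not overlap, but they take genes as independent, and the 11 genes share 9 summits. The summit of the aspartate pair counts in both groups, as the coding start is 386 bp from tRNA:Asp-GTC-1-5 and 524 bp from tRNA:Asp-GTC-1-4. Of the 5 genes, 3 had a coding start at 500 to 1000 bp. Other non-coding genes split alike, at 10.9% of 635 with a coding start within 500 bp and 2.33% of 3384 without one. Among the 211 tRNA genes with no coding start within 1000 bp, 2 had an IDR summit (0.948%).

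In the pooled list the split by coding start was smaller for tRNA genes, at 46.9% with and 33.7% without, while other non-coding genes stood at 52.6% with and 21.7% without. The tRNA share was therefore above that of other non-coding genes where no coding start was near (33.7% against 21.7%) and not where one was (46.9% against 52.6%). The other non-coding genes again include the 100 5S rRNA genes and the 90 genes on Y, and the split was not made without them. Of the 258 genes without one, 27.9% had a summit in replicate 2 and 37.2% in replicate 3.

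Many tRNA genes stood in clusters, here chained over gaps of up to 2000 bp. There were 69 clusters with 199 genes and 91 single genes. A pooled summit lay near 37.7% of clustered genes (30.9% to 44.8%) and 29.7% of single ones (20.5% to 40.2%). Replicate 2 gave 32.7% of clustered and 24.2% of single genes, and replicate 3 gave 45.7% of clustered and 25.3% of single genes. Clustered genes were thus the higher ones in both replicates, by more in replicate 3, though neighbours share summits and the intervals overlapped. An IDR summit lay near 8 clustered genes (4.02%) and 3 single genes (3.30%).

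Large clusters differed in the pooled list, and in part between the replicates. The 7-gene isoleucine and leucine cluster on 2R had pooled summits near 4 genes, with a best signal of 58.64, and the 7-gene glutamate and initiator methionine cluster had them near 4 genes with the 1 IDR summit described. The 6-gene cysteine and lysine cluster on 3L had 4 genes with a pooled summit and a best signal of 39.86. By contrast, the 7-gene arginine and serine cluster on X and a 5-gene arginine, asparagine and lysine cluster on 2R had no pooled summit. The cluster on X had 0 genes with a summit in replicate 2 and 1 in replicate 3, and the 5-gene cluster had 2 and 0. In the same order, the isoleucine and leucine cluster had 4 and 4, the glutamate and initiator methionine cluster 1 and 4, and the cysteine and lysine cluster 4 and 5. Of the 7 clusters of 5 or more genes, 5 had a pooled summit and 1 an IDR summit.

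The place of the gene and its copy number were examined in the same way. IDR summits lay near 3 of 127 tRNA genes in introns (2.36%), 8 of 156 between genes (5.13%) and none of 7 in exons. The pooled shares were 33.9% in introns, 35.3% between genes and 57.1% in exons (4 of 7 genes, 18.4% to 90.1%). Of the 290 genes, 52 have a sequence found once among them and 238 an identical copy, with 95 distinct sequences in all. Sequences were compared over the whole annotated gene, introns included, so genes that differ only in an intron count as different. The IDR share was 3.85% of unique genes and 3.78% of genes with a copy. Within the copied genes it was 0.971% at 2 to 5 copies (1 of 103, 0.0246% to 5.29%) and 5.93% at 6 or more (8 of 135, 2.59% to 11.3%), with overlapping intervals. The pooled share was 40.4% of unique genes and 34.0% of genes with a copy. The sources used here do not say how reads that match several copies were placed, and its part in the listed regions was not tested.

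**Figure D5:**
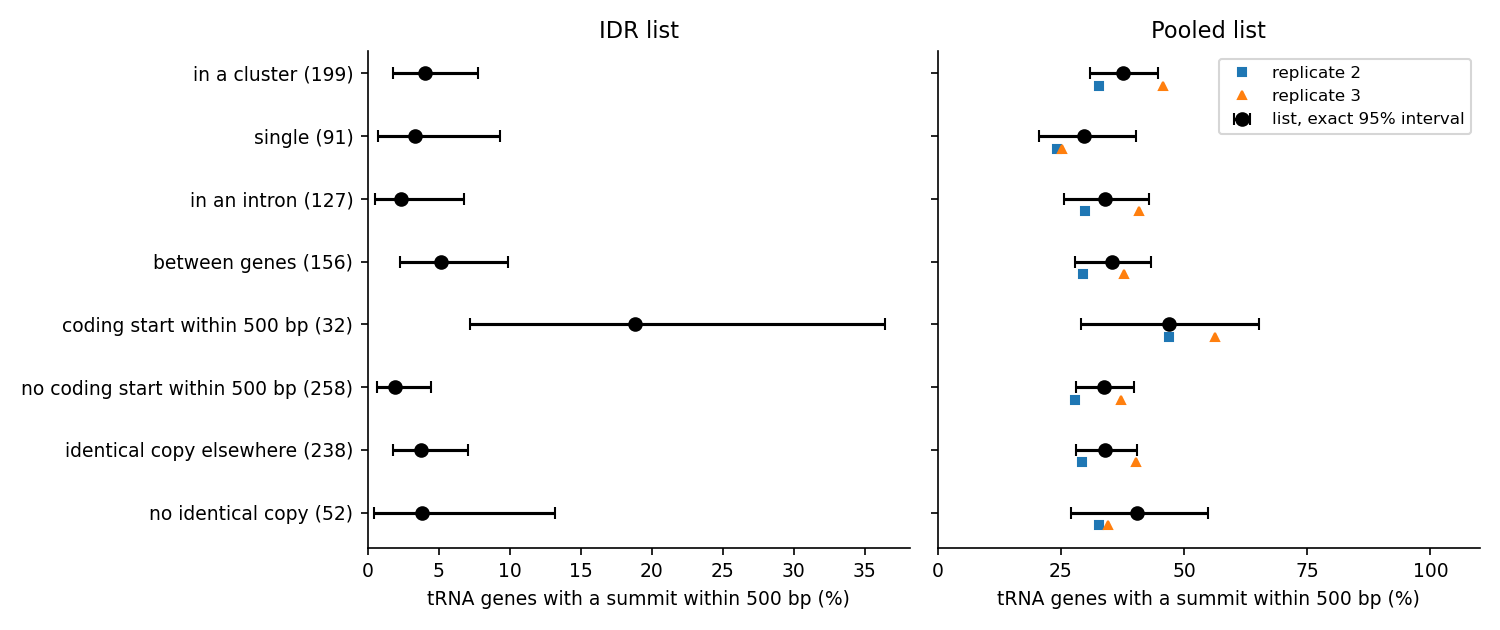
Percentage of tRNA genes with a summit within 500 bp in the IDR list (left) and the pooled list (right), by cluster, place, coding start and copy number, with the number of genes in brackets. Circles carry exact 95% intervals, and squares and triangles show replicates 2 and 3; genes with a coding start within 500 bp stand at 18.8% against 1.94% of the others in the IDR list.

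Sequence words were counted within 50 bp of each summit, on both strands. The B box core matched 271 of the 290 tRNA genes (93.4%) and the A box core 159 (54.8%), and among the 11 genes with an IDR summit these were 11 and 7. Both words are fixed patterns, so a gene without a match is not shown to lack the box. At the 9 IDR summits near tRNA genes, the B box core was found at 2 and the A box core at 1, against 3.26% and 13.7% of all IDR summits. Both B box matches were at summits with a coding start, near tRNA:His-GTG-1-3 and tRNA:Trp-CCA-2-2. These summits lay 179 bp and 268 bp upstream of the tRNA starts, so the windows did not reach those genes. At the 76 weaker pooled summits near tRNA genes the B box core was found at 15 (19.7%), against 3.02% of 26329 pooled summits outside IDR peaks. Most tRNA genes carry this word themselves, and how many of the matches lay inside a tRNA gene was not counted.

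Other words were searched in the same windows, of which there are too few near tRNA genes to read a difference. The DNA replication-related element (TATCGATA), which the factor DREF binds at many promoters of growth genes, was found at 1 of the 9 IDR summits near tRNA genes, that of tRNA:Trp-CCA-2-2 beside CG30122, against 3.00% of all IDR summits. The words CAACACTG and TTTAAAAA were found at none of the 9, against 3.86% and 5.28% of all IDR summits. The median GC content of the windows was 39.6% near tRNA genes and 36.6% over all IDR summits.

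The other short genes of RNA polymerase III are the 5S rRNA genes and those of U6 (with U6atac), 7SK, 7SL, RNase P and RNase MRP RNA. Of 96 annotated 5S rRNA genes and 4 more named as 5S pseudogenes, none had a summit in any list. As at the tRNA genes, the placing of reads that match several copies is not known, and its part here was not tested. The count thus covers listed summits and does not show that fu2-GFP was absent from these genes. Of the other 10 genes, 3 had an IDR summit (30.0%), against 3.68% of other non-coding genes. A pooled summit lay near 5 of the 10, against 26.6% of other non-coding genes. The genes are few and some share a summit, as given next, so the counts are not independent. No difference was tested. The summit of snRNA:7SKa, whose RNA holds back the elongation factor P-TEFb, had a signal of 85.91 and ranked 2667 in replicate 2 and 1573 in replicate 3. snRNA:U6:96Ab and snRNA:U6:96Ac, which encode the U6 RNA of the spliceosome, shared a summit with a signal of 80.21 that ranked 3186 in replicate 2 and 1879 in replicate 3. The related genes snRNA:7SKb and snRNA:U6:96Aa had no IDR or pooled summit, and snRNA:U6atac had a pooled one only. U6 and 7SK genes have promoters upstream of the transcript, unlike tRNA genes, and whether this bears on the summits was not tested. Without replicate 3, by the strongest regions of replicate 2, 1 gene remained of the 3 with an IDR summit.

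The protein coding genes that make and process tRNA stood apart from the tRNA genes themselves. Of 28 genes found for RNA polymerase III and its factors, 10 had an IDR summit within 500 bp of a start (35.7%), and of 45 genes for tRNA maturation and modification, 14 had one (31.1%). Together this was 24 of 73 (32.9%), against 17.5% of all protein coding genes, and 64 of 73 (87.7%) in the pooled list, against 55.7%. The strongest regions of replicate 2 held 26 of the 73 and those of replicate 3 held 23. The lists were chosen with earlier results known, so these shares are a description, with no test.

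Among the factors that place the polymerase, the TFIIIB subunits Bdp1 and Brf had signals of 531.7 (rank 47) and 322.6 (rank 128). Bdp1 ranked 41 in replicate 2 and 48 in replicate 3, and Brf ranked 179 in replicate 2 and 111 in replicate 3. Of subunits shared with other RNA polymerases, Polr2F had 294.5, Polr2H 291.3 and Polr1D 90.81, while Polr3E, a subunit particular to RNA polymerase III, had 70.98. La, which binds the 3′ ends of its transcripts, had 108.3, Pbp95 of the complex that binds snRNA promoters had 86.35, and CG7099 had 169.0. The 2 largest subunits, Polr3A and Polr3B, had no IDR summit.

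In the maturation list the signal was highest at Tcs5, the kinase of the KEOPS complex that modifies a base beside the anticodon, with 851.1 at rank 12. It ranked 11 in replicate 2 and 18 in replicate 3. Trmt6 (374.0) and Trmt61 (110.8) are the subunits of 1 tRNA methyltransferase, and Elp5 (294.1), Elp6 (226.8) and Elp4 (109.3) belong to Elongator, which modifies uridines read at the wobble position. The dihydrouridine synthases Dus3 and Dus2 had 262.0 and 201.8, and the RNase P proteins Rpp14a and Rpp20, which act in trimming the 5′ end, had 139.0 and 126.2. Lower were the tRNA cytosine methyltransferase Mt2 (83.71), the pseudouridine synthase Pus1 (75.43) and the helicase Ddx1 (70.78).

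Nearly all these summits were shared with a neighbour. Of the 24 genes, 23 (95.8%) had the start of another gene within 500 bp of the summit, against 1534 of the 2444 protein coding genes with an IDR summit (62.8%). The median distance of the 24 from their summit was 100 bp. At Tcs5 the neighbour was CHMP2B, at Bdp1 it was CG6565, at Brf sds22 and at Trmt6 Ent2, and which of the starts the summit belongs to cannot be told apart here.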

How the data were processed

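The values used are the signal value of each listed region and the summit's offset from the region start, both as deposited by the authors in 4 narrowPeak lists on dm6 (the 4 lists on dm3 were not used). Per the file manifests, each replicate list derives from its own alignment, the pooled list from both, each with 1 input that is not described, and the IDR peaks from these lists. The sources used here give no aligner, peak caller or IDR threshold. The 3033 IDR peaks have signal ranks 1 to 3033 of the pooled list. The lists give no reads, so depth is unknown.

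Coordinates were made 1-based. Genes came from Ensembl release 115 (BDGP 6.54) and sequence from the Release 6 genome. A replicate's summit was matched to a pooled one within 100 bp. Intervals are exact Clopper-Pearson at 95%. No set test or random placement was run. Members, gene lists and named genes were chosen with earlier results of these data known: tRNA genes with an IDR summit, the 10 at the next strongest summits, those in 1 replicate's strongest regions, coding neighbours, and list members with an IDR summit, of which some are not reported here. Of the 2 protein lists, 1 and 11 symbols found no gene. Alternatives were distances of 200 and 1000 bp, distance to the gene body, overlap by 1 bp, 1 unit per cluster, other cluster gaps, peaks above the median signal, and each replicate alone. The search was tested on simulated positions, where 4000 of 4000 results matched a direct search and 400 of 400 planted summits were found. Python 3.11.15, numpy 2.4.6, pandas 2.3.3, scipy 1.17.1 and matplotlib 3.10.9 were used.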

Additional observations from a re-analysis of the deposited data

How the results depend on the processing

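At 200 bp, 2 tRNA genes had an IDR summit (2 summits, tRNA:Gln-TTG-2-1 and tRNA:His-GTG-1-3), 1 of them with and 1 without a coding start within 200 bp, against 19 genes at 1000 bp, 4 of them at a summit with no coding start within that distance. The replicates' strongest regions gave 1 gene in replicate 2 and 2 in replicate 3 at 200 bp, and 18 and 19 at 1000 bp. The pooled count was 44 genes at 200 bp, 53 by overlap and 66 as cluster units. At 200 bp the IDR share was 0.690% of tRNA genes and 1.59% of other non-coding genes. With overlap of the gene required, 2 genes kept an IDR peak. Above the median IDR signal, 3 genes and 3 summits remained, all 3 summits with a coding start and so 0 genes without one, and 0 of the other RNA polymerase III genes.

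Taking each replicate alone gave 9 to 10 genes, 8 to 9 summits, 6 summits with a coding start, 2 to 3 genes without, 87 to 114 genes in the full lists, 23 to 26 protein list members and 1 to 3 other RNA polymerase III genes. The median distance was 228 bp for pooled summits. Of 56 values under alternatives, 35 stayed within 1.5 times. No paired analysis was possible because there is 1 group. Unknown depth limits every statement of absence.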

Other observations

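Among the chromosome arms, the pooled share of tRNA genes was highest on 2R, with 44 of 98 genes (44.9%). The other non-coding genes there, which include the 100 5S rRNA genes, stood at 27.1%. The tRNA share was 37.5% on 3L against 28.2% of other non-coding genes, and 30.4% on 3R against 27.8%. It was 29.2% on X against 25.5% and 22.0% on 2L against 26.4%. On 2R replicate 2 gave 34.7% and replicate 3 gave 48.0%, and on 3L they gave 35.4% and 37.5%, so that 3L and not 2R led in replicate 2. The 48 tRNA genes on 3L had no IDR summit, with an upper interval limit of 7.4%, above the 3.79% of all tRNA genes.

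By amino acid, the 11 genes with an IDR summit fell in 9 of 22 isotype names, with none among the 26 arginine, 22 leucine, 20 serine and 19 lysine genes. The upper interval limits of these 4 isotypes were 13.2% to 17.6%, above the 3.79% of all tRNA genes, so they are not set apart. In the pooled list 6 of 11 isoleucine genes, 10 of 22 leucine genes and 9 of 20 serine genes had a summit, against 3 of 17 alanine and 2 of 12 glutamine genes. For alanine and glutamine the replicates differed from this, with 6 and 7 alanine genes and 1 and 5 glutamine genes in replicates 2 and 3. These counts are small, neighbouring genes share summits, and no difference between isotypes was tested.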
